A study of Homo sapiens with 11 samples.

Results

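H3K4me3 at gene promoters was compared between BEAS-2B cells grown without nickel after an exposure (Ni-W) and BEAS-2B cells under nickel (Ni-E), to ask which promoter levels reversed after the termination of exposure and which changed only then. The comparison rests on 2 of the 11 samples of the series, 1 ChIP-Seq library on each side, and the library of untreated (UT) cells gave the starting level. BEAS-2B cells are a virus-immortalized line from normal human bronchial epithelium. UT cells received no nickel, and NiCl2 at 100 μM was given to Ni-E cells for 6 weeks. Ni-W cells had the same exposure and were then plated at low density in nickel-free medium, where single colonies were picked and expanded, and 1 such population was used after more than 6 months of culture. The sample labels also name 2 weeks of nickel-free culture for the washed-out cells of both lines of the series. Because Ni-W is 1 expanded colony, and no colony step is described for UT or Ni-E, what washout did and what sets this colony apart cannot be told apart. ChIP on 2 biological replicates is described, but each condition has 1 column of values. Whether replicates were pooled in it is not given in the sources used here, each column is treated as 1 library, and the input libraries were not analysed here. Therefore no test of the condition was possible, and every interval below covers counting error only.

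Trimethylation of lysine 4 of histone H3 is placed around the start sites of active and poised genes by the KMT2 and SETD1 methyltransferase complexes and is removed by the KDM5 demethylases. The KDM5 enzymes belong to the JmjC family, which needs iron and 2-oxoglutarate and can be inhibited by nickel ions. The mark is broadest and strongest over promoters rich in CG dinucleotides, and in bronchial epithelium it covers housekeeping genes as well as the genes of the epithelial programme.

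Of 26237 listed promoters, each a window of 2 kb on either side of a start site, 14127 held at least 1 RPKM (reads scaled to the length of the window and the depth of the library) in any of the 3 libraries and were counted. To show what kind of DNA the results below concern, the RefSeq promoters (GRCh38.p14, from 250 bases before the start to the first 50 bases of the transcript, read 5′ to 3′ on the strand of the gene) of 6 promoters are given, 2 that gained H3K4me3 only in Ni-W, 2 that lost it only in Ni-W, and 2 whose Ni-E level reversed. Capitals mark CG dinucleotides. SNURF (chr15:24954737-24955036, plus strand) and GRB14 (chr2:164621433-164621732, minus strand) gained, GLDC (chr9:6645680-6645979, minus strand) and ZNF726 (chr19:23914636-23914935, plus strand) lost, CYYR1 (chr21:26573237-26573536, minus strand) regained a level that was lost under nickel, and LRRTM1 (chr2:80304703-80305002, minus strand) gave up a level that was gained under nickel. They hold 18, 43, 22, 16, 9 and 10 CG dinucleotides in this order, and the median over the 10046 counted promoters with a RefSeq entry (71.11%) was 27.
SNURF: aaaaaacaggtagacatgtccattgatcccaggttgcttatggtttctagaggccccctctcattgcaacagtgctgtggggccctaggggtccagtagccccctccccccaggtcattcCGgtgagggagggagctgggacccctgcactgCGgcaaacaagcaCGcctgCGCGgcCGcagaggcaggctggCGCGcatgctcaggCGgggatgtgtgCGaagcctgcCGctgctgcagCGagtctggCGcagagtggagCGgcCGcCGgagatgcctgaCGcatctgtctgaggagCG
GRB14: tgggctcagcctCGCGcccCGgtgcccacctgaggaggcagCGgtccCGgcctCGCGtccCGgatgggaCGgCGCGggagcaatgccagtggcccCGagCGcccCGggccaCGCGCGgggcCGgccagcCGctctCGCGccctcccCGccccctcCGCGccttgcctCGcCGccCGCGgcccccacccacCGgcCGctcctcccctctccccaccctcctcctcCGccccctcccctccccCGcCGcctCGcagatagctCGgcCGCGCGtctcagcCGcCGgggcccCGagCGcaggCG
GLDC: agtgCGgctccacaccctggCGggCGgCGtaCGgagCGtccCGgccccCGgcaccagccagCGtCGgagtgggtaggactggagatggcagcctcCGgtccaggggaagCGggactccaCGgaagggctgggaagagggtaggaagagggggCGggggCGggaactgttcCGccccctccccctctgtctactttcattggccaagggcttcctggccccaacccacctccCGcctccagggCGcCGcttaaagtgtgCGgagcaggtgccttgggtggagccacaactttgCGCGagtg
ZNF726: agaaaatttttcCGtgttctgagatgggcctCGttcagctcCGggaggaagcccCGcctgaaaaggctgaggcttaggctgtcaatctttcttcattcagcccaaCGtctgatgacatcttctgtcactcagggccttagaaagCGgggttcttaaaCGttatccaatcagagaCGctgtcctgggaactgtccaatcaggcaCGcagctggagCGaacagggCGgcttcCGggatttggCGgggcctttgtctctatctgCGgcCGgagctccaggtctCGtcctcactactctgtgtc
CYYR1: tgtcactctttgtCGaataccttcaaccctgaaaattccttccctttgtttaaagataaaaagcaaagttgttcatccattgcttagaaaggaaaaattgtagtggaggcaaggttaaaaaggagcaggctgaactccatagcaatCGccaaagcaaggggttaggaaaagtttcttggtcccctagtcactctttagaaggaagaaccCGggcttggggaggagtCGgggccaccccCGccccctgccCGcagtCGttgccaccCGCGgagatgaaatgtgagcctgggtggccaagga
LRRTM1: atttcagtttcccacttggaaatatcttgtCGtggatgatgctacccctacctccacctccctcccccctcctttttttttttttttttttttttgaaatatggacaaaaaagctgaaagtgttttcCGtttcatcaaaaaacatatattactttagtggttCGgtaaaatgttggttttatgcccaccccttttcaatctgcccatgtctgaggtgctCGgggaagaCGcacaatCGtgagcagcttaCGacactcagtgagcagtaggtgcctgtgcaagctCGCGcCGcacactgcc

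The promoter with the largest rise belongs to MIR125B1, a microRNA gene whose main product is shown with its seed (bases 2 to 8) in capitals. The mature sequence lies at chr11:122099809-122099830 on the minus strand (GRCh38.p14, RefSeq).
hsa-miR-125b-5p: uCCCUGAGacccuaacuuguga

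The 3 libraries differed in depth and in the share of reads that fell on promoters. Every RPKM value was a whole multiple of what 1 read is worth in its library, which gave depths of 28385725 reads in UT, 37493931 in Ni-E and 29933530 in Ni-W. Promoters took 37.6% of these reads in UT, 36.0% in Ni-E and 22.9% in Ni-W, where a read in overlapping promoters counts more than once. The median promoter level was 1.57, 1.39 and 1.12 RPKM, and a level of 3 reads, taken as the lowest that can be read, was 0.0264, 0.0200 and 0.0251 RPKM. In the share of reads on promoters UT and Ni-E were close and Ni-W was lower, whereas in depth UT and Ni-W were close and Ni-E was deeper.

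The epithelial identity of the cells was checked on promoters of cell type markers. Of 6 epithelial markers 5 were counted, and the summed level of all 6 was 25.4 RPKM in UT, 25.3 in Ni-E and 16.3 in Ni-W, led by KRT7 (7.15, 8.27 and 4.49 RPKM). KRT19 was below 1 RPKM in all 3 libraries. None of the 3 secretory, 3 alveolar, 3 urothelial and 3 endothelial markers and the hepatocyte marker ALB were counted. Of 6 fibroblast markers 3 were counted, led by COL1A1 (8.74, 7.96 and 3.53 RPKM), of 4 immune markers CD14 only, of 4 basal airway markers 2 and of 2 ciliated markers both. No marker promoter counted was called in Ni-W vs Ni-E. Mesenchymal promoters thus carried the mark beside epithelial ones in every library.

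Each level was divided by the median promoter level of its library, as the study does for its chromatin dynamic score, and a promoter was called higher or lower where the scaled levels differed at least 2-fold and the 95% counting interval of their ratio excluded 1. Below, rose and fell refer to promoters called in this way, which is a statement on 2 libraries. In Ni-W vs Ni-E, 274 of 14127 promoters rose (1.94%) and 357 fell (2.53%). In comparison, Ni-E vs UT had 26 higher (0.184%) and 19 lower (0.134%), and Ni-W vs UT had 294 higher (2.08%) and 189 lower (1.34%). As deposited these were 12 and 35 for Ni-E vs UT and 128 and 3796 for Ni-W vs UT, and with scaling by promoters averaging 3 RPKM or more they were 14 and 29, and 478 and 42, so that the balance of higher and lower turned with the scaling in both. The promoters that rose held 0.916 RPKM in UT, 0.713 in Ni-E and 1.68 in Ni-W at the median, and 53 of them rose at least 4-fold. The filter had a part in this, since a promoter below 1 RPKM in UT and Ni-E was counted only where Ni-W reached 1 RPKM. This was so for 192 promoters, of which 154 rose and none fell, and the other 120 rises were among 13935 promoters. The same holds for every rise named below whose UT and Ni-E levels are under 1 RPKM. The promoters that fell held 4.52, 4.75 and 1.77 RPKM at the median, and only 4 of them fell at least 4-fold. In the plot of Ni-W against Ni-E levels, the rises with less than 1 RPKM in Ni-E are for the most part those admitted in this way.

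**Figure D1:**
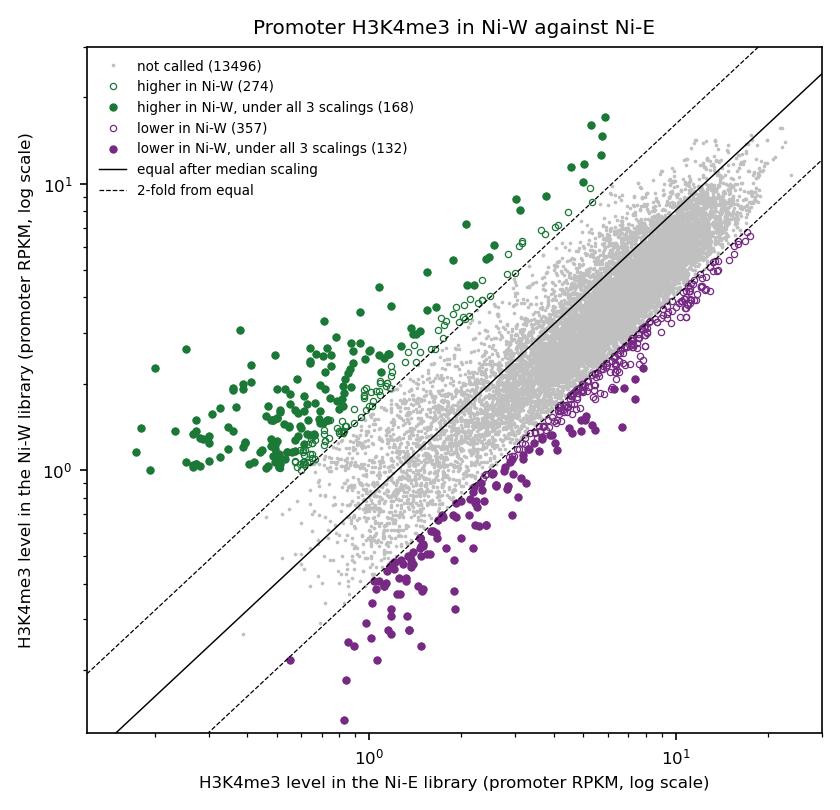
H3K4me3 level of each counted promoter in the Ni-W library (y axis) against the Ni-E library (x axis), in RPKM on log axes. Green circles are the 274 promoters that rose and purple circles the 357 that fell, filled where the call held under all 3 scalings (168 and 132), and grey points are those not called. The solid line marks equal levels after median scaling and the dashed lines a 2-fold difference from it. Most filled green circles lie below 1 RPKM in Ni-E.

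The split of rises and falls depends on the scaling, as most promoters were lower in Ni-W. The median log2 ratio of Ni-W over Ni-E over the counted promoters was −0.41 after median scaling, −0.72 for the RPKM as deposited, −0.05 with quantile normalization and −0.00 when libraries were scaled by the median of promoters averaging 3 RPKM or more. The counts of rises and falls were 168 and 2633 as deposited, 401 and 188 with quantile normalization, and 570 and 46 with scaling by the stronger promoters. Calls that held with median scaling, as deposited and with quantile normalization numbered 168 rises (1.19%) and 132 falls (0.934%). Changes of gene lists are therefore given below relative to the median of all counted promoters under the same scaling.

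The shift in Ni-W followed the level of the mark. With median scaling, the median log2 ratio of Ni-W over Ni-E was −0.08 for the 1185 promoters with 1 to 2 RPKM in UT, −0.31 for 2266 promoters at 2 to 4, −0.45 for 6124 at 4 to 8 and −0.47 for 4268 at 8 or more. With quantile normalization these medians were −0.14, −0.02, −0.03 and −0.10. At the same UT levels, 65, 35, 17 and 1 promoters rose and 62, 70, 131 and 78 fell. Below 1 RPKM in UT a promoter was counted only through Ni-E or Ni-W, so these groups were left out. Their medians with quantile normalization were 2.2 (59 promoters below 0.5 RPKM) and 0.93 (225 at 0.5 to 1).

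**Figure D2:**
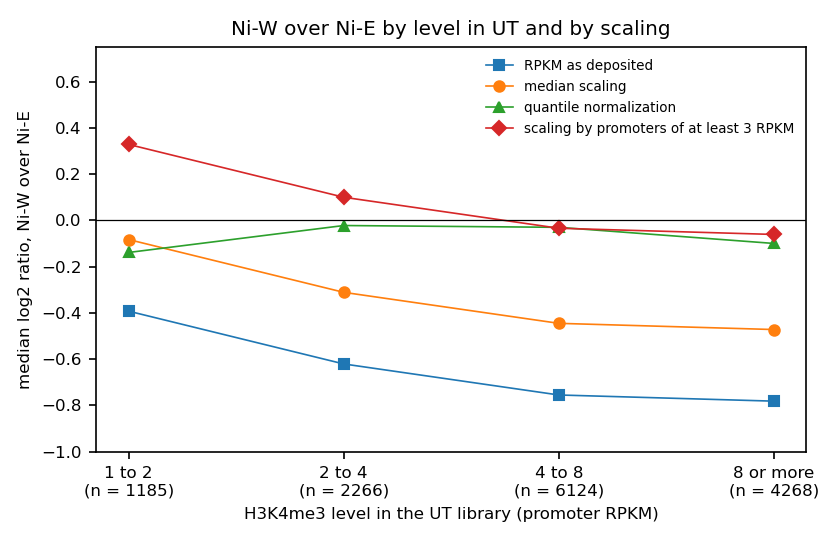
Median log2 ratio of Ni-W over Ni-E (y axis) for counted promoters grouped by their level in the UT library (x axis, RPKM), with 1 line per scaling. UT is outside the comparison. At 1 RPKM or more in UT, the values fall from weak to strong promoters as deposited and with median scaling. They also fall with scaling by promoters of at least 3 RPKM. With quantile normalization they stay between −0.14 and −0.02.

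Reversal could be asked only of the 45 promoters called in Ni-E vs UT. A promoter was counted as reversed where it was called in Ni-W vs Ni-E in the other direction and lay less than 2-fold from UT in Ni-W. Of the 26 promoters that were higher in Ni-E, 9 reversed, 2 were retained at least 2-fold above UT, 7 rose further in Ni-W, and 8 lay within 2-fold of both UT and Ni-E. Of the 19 that were lower in Ni-E, 9 reversed, 1 was retained, 1 fell further, 3 rose past UT to at least 2-fold above it, and 5 lay within 2-fold of both. Parts of this tally were fixed by the filter. All 7 that rose further and 1 of the 2 retained gains were counted through Ni-W alone, 5 of the 9 reversed gains through Ni-E alone, and 1 of the 3 that rose past UT through Ni-W alone, while all 9 reversed losses held at least 1 RPKM in UT. Of the promoters with at least 1 RPKM in UT, 7 of 9 that were higher in Ni-E and 13 of 18 that were lower lay nearer to UT than to Ni-E in Ni-W. The comparisons share libraries, so a level that was high or low in Ni-E through counting error counts towards a reversal. The number of reversed gains was 3 as deposited, 4 with quantile normalization and 1 with scaling by stronger promoters, and that of reversed losses was 11, 7 and 14.

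**Figure D3:**
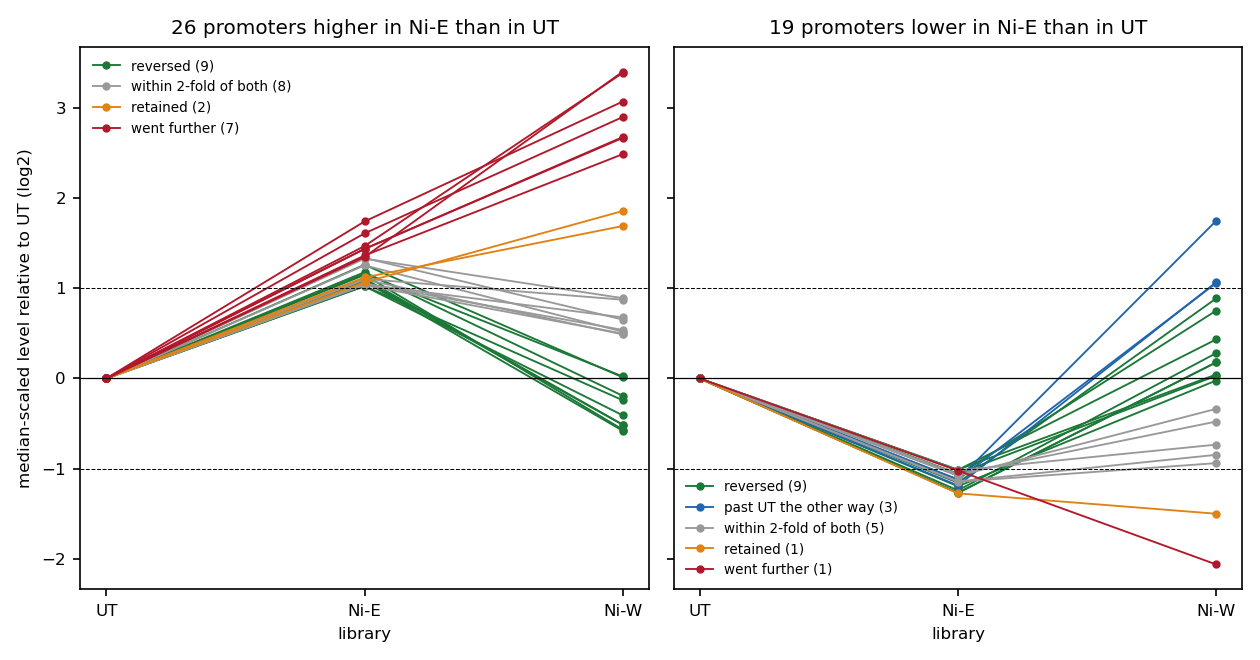
Median-scaled H3K4me3 level relative to UT (y axis, log2) in the UT, Ni-E and Ni-W libraries (x axis) for the 26 promoters higher in Ni-E (left) and the 19 lower in Ni-E (right), 1 line per promoter, coloured by what the Ni-W level was. Dashed lines mark 2-fold from UT. The 9 reversed promoters on either side end between the dashed lines, and 7 lines on the left continue upwards.

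Of the 9 reversed gains, 6 were at snoRNA genes, and among these the windows of SNORD56 and SNORD57 overlap and share reads. LRRTM1, PCDHB1, LRRC4C, SNORD57 and SNORD19 reached 1 RPKM in Ni-E only and were counted through it. LRRTM1, a synaptic leucine-rich repeat protein, held 0.696 RPKM in UT, 1.47 in Ni-E and 0.501 in Ni-W, and SNORD14E, a box C/D snoRNA that guides methylation of ribosomal RNA, held 2.25, 4.49 and 1.40 RPKM. These 2 reversed under all 3 scalings. With scaling by stronger promoters, the falls of LRRTM1 and SNORD14E were not called (log2 ratios −0.84 and −0.96). Ni-E was the highest library for both, and Ni-W lay 2.37-fold and 2.58-fold below it after scaling. The other 7 were SNORD57, SNORD83B, SNORD56, SNORA74A, SNORD19, PCDHB1, a protocadherin, and LRRC4C, a synaptic adhesion protein.

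Reversed losses kept their calls under all 3 scalings at 6 promoters. With quantile normalization, however, SNORD123 lay more than 2-fold above UT in Ni-W (log2 ratio 1.09). CYYR1, a cysteine and tyrosine-rich membrane protein, held 1.65 RPKM in UT, 0.693 in Ni-E and 1.98 in Ni-W. NXPH2, a secreted neurexophilin, held 1.85, 0.693 and 1.60 RPKM, and SNORD123 held 1.39, 0.553 and 1.84 RPKM. In each case Ni-E was the only low library, and the rise in Ni-W was 3.54-fold, 2.87-fold and 4.12-fold after scaling. The antisense RNA PLCE1-AS1 (1.07, 0.467 and 1.03 RPKM) and the pair LOC101929089 and TMEM25, which share a promoter region (3.14, 1.15 and 2.54 RPKM for the first), followed the same course. The remaining 3 were ELF3, an epithelial ETS transcription factor (4.55, 1.76 and 3.20 RPKM), ECHDC3 and CPZ.

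Some promoters did not return. PDPN, podoplanin, a membrane glycoprotein of type I alveolar and lymphatic cells, was retained at 0.784 RPKM in UT, 1.51 in Ni-E and 1.80 in Ni-W, and PCDHA11 at 0.414, 0.767 and 1.07 RPKM. Neither of these 2 retained gains held under all 3 scalings. COL21A1, a fibril-associated collagen, was a retained loss under all 3 scalings, with 1.06, 0.387 and 0.267 RPKM. Between Ni-E and Ni-W its levels differed by less than counting error (log2 ratio −0.23, 95% interval −0.89 to 0.42).

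Others moved on in the direction of the exposure. EYA2, a transcriptional coactivator and phosphatase of organ development, rose from 0.335 RPKM in UT to 0.753 in Ni-E and 2.52 in Ni-W. CDH11, a mesenchymal cadherin, held 0.308, 0.753 and 2.30 RPKM, and LIN28B, a repressor of let-7 microRNAs, 0.255, 0.580 and 1.02 RPKM. The neighbours CHN2 and CPVL, which share a start region, and FXYD6 with its readthrough FXYD6-FXYD2 make up the rest. The calls of LIN28B, CHN2, CPVL and FXYD6 in Ni-W vs Ni-E did not hold under all 3 scalings. NUPR1, a stress-induced nuclear protein, fell at each step, from 1.27 to 0.553 and 0.217 RPKM. All 8 were at their extreme in Ni-W, which follows from how they were grouped.

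HAS2, a hyaluronan synthase, and its antisense HAS2-AS1 went past UT in the other direction. HAS2 held 1.79 RPKM in UT, 0.727 in Ni-E and 2.66 in Ni-W, and HAS2-AS1 held 1.29, 0.500 and 1.92 RPKM. Both lay just past 2-fold above UT after median scaling (log2 ratios 1.06 and 1.07), and within 2-fold of UT as deposited. DNAJA4, an HSP40 co-chaperone, held 0.572, 0.233 and 1.37 RPKM. Ni-E was the lowest library and Ni-W the highest for these 3.

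A change was counted as new where Ni-E lay less than 2-fold from UT and Ni-W was called against both in the same direction. This held for 213 of the 274 rises (77.7%) and 128 of the 357 falls (35.9%), while reversal made up 9 of the rises (3.28%) and 9 of the falls (2.52%). Of the 213 new gains, 139 had passed the filter through Ni-W alone. Of the falls, 228 lay within 2-fold of UT, and so did 51 of the rises. New gains numbered 99 as deposited, 308 with quantile normalization and 399 with scaling by stronger promoters, new losses 2274, 113 and 28, and 100 new gains and 63 new losses held under all 3 of median scaling, deposited values and quantile normalization. New gains had median levels of 0.757 RPKM in UT, 0.707 in Ni-E and 1.77 in Ni-W, and new losses 4.10, 3.91 and 1.36 RPKM.

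The 9 largest rises under all 3 scalings, 8 of them new gains, reached levels between 1.15 and 3.09 RPKM in Ni-W. All 9 were below 1 RPKM in UT and Ni-E and were counted through Ni-W alone, so that their values are a description. MIR125B1, the gene of miR-125b shown above, held 0.238 RPKM in UT, 0.200 in Ni-E and 2.27 in Ni-W, which is 14.1-fold after scaling (log2 ratio 3.82, 95% counting interval 3.27 to 4.41). KCNH7, a voltage-gated potassium channel, held 0.255, 0.253 and 2.65 RPKM (log2 ratio 3.70, 3.21 to 4.22). UT and Ni-E were alike for both, and Ni-W alone was high.

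Both related adaptor genes GRB7 and GRB14, whose proteins bind activated receptor tyrosine kinases, were among these 9. GRB7 held 0.775 RPKM in UT, 0.380 in Ni-E and 3.09 in Ni-W, 10.1-fold above Ni-E (log2 ratio 3.33, 2.93 to 3.76). GRB14 held 0.282, 0.360 and 1.93 RPKM, 6.64-fold (2.73, 2.30 to 3.19). The GRB14 promoter printed above is dense in CG dinucleotides, with 43 in 300 bases.

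SNURF, the upstream reading frame of the imprinted SNURF-SNRPN transcript that is expressed from the paternal chromosome, held 0.194 RPKM in UT, 0.180 in Ni-E and 1.40 in Ni-W, 9.61-fold (log2 ratio 3.26, 2.67 to 3.91). PCDH20, a protocadherin outside the clusters, held 0.458, 0.413 and 2.32 RPKM. Again only Ni-W was high. The others were CCSER1 (0.176, 0.273 and 1.495 RPKM), LOC728024 (0.255, 0.173 and 1.15 RPKM) and DNAJA4, which was already low in Ni-E. The 10 Mb windows around KCNH7 and GRB14 were shifted upwards by 0.67, as described below. Relative to promoters of their own window, the log2 ratios of KCNH7 and GRB14 were 3.03 and 2.06, and that of MIR125B1 was 4.03.

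The 10 largest falls under all 3 scalings were all new losses and ended between 0.134 and 0.376 RPKM, apart from GLDC. SELENBP1, a selenium-binding methanethiol oxidase, held 1.13 RPKM in UT, 0.827 in Ni-E and 0.134 in Ni-W, 4.98-fold lower after scaling (log2 ratio −2.32, 95% counting interval −3.17 to −1.56, 16 reads in Ni-W). M1AP, a protein of meiosis, held 2.21, 1.90 and 0.326 RPKM, 4.70-fold lower (−2.23, −2.76 to −1.75). GLDC, the glycine decarboxylase of the mitochondrial glycine cleavage system, started from a strong mark of 6.62 RPKM in UT and 6.66 in Ni-E and held 1.41 in Ni-W, 3.81-fold lower (−1.93, −2.17 to −1.69). GLDC was the only strongly marked promoter among them.

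Of the other falls, ZNF726, a zinc finger gene, held 1.47 RPKM in UT, 1.48 in Ni-E and 0.242 in Ni-W, 4.93-fold lower (log2 ratio −2.30, −2.91 to −1.74), ZNF880 held 1.61, 1.33 and 0.309 RPKM, and the pseudogene ZNF876P 1.303, 1.17 and 0.267 RPKM. Among noncoding genes, MIR5190 held 2.53, 1.89 and 0.376 RPKM, MIR6870 1.19, 0.840 and 0.184 RPKM, and LINC01230 1.36, 1.06 and 0.217 RPKM. LOC101927759, named with the pseudogene HTATSF1P2 whose reads are the same, held 1.40, 1.35 and 0.276 RPKM. UT and Ni-E were close for these 7 and Ni-W alone was low. GLDC and LINC01230 lie in a window of chromosome 9 that was shifted down by 0.44, and relative to that window their log2 ratios were −1.49 and −1.53.

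**Figure D4:**
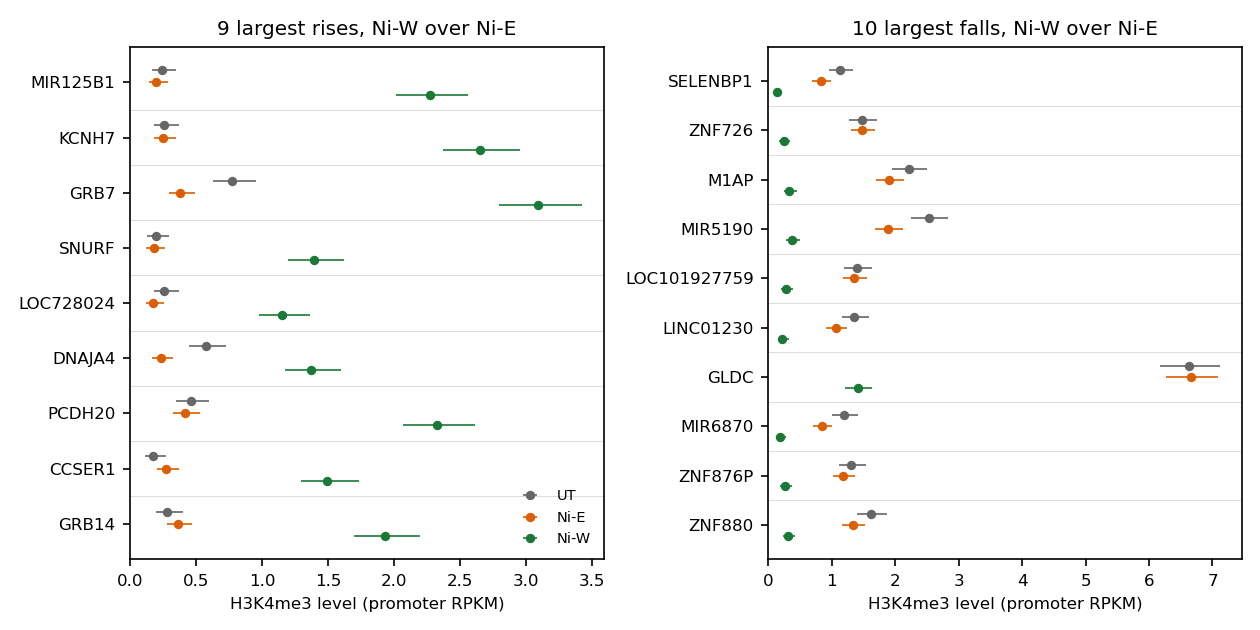
H3K4me3 level (x axis, promoter RPKM) in the UT (grey), Ni-E (orange) and Ni-W (green) libraries for the 9 largest rises (left) and the 10 largest falls (right) in Ni-W over Ni-E. Points are the single libraries and bars are 95% Wilson intervals of their reads. Rows were picked by the size of the difference between Ni-W and Ni-E. In every row Ni-W lies apart from both other libraries, above them on the left and below them on the right.

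In the epithelial and mesenchymal programmes no list had more than 1 call, beside 1.94% higher and 2.53% lower of all counted promoters. None of the 23 counted epithelial junction promoters was called, and their median shift relative to all promoters was 0.38 with median scaling and 0.21 with quantile normalization. Of 30 EMT regulators and mesenchymal genes, CDH11 alone rose (3.33%), and of 15 integrins ITGA4, the alpha chain of VLA-4, rose (6.67%; 1.71, 1.17 and 2.13 RPKM), not as deposited. None of the 5 keratins was called. The window of ITGA4 was shifted upwards by 0.91, and relative to it the log2 ratio of ITGA4 was 0.26.

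The genes of the enzymes that set and remove the mark, and the counted promoters of gene lists that respond to nickel, were mostly not called. With 1.94% higher and 2.53% lower over all counted promoters, lists of this size would hold few calls in any case. None of the 17 promoters of H3K4 methyltransferase complexes and none of the 5 H3K4 demethylases was called, with KMT2A at 14.8, 14.7 and 7.56 RPKM and KDM5A at 11.1, 11.6 and 8.24 RPKM. Of 17 other JmjC demethylase promoters, KDM4C, an H3K9 demethylase, fell (9.90, 10.3 and 3.42 RPKM), which was called neither with quantile normalization nor relative to its window on chromosome 9 (log2 ratio −0.84). None of 32 HIF targets, 17 NRF2 targets, 11 glutathione S-transferases and 4 counted metallothioneins of 12 was called. The median shifts of these lists relative to all promoters, with median scaling, were −0.16 for the methyltransferases, −0.08 for the demethylases, −0.05 for HIF targets, −0.18 for NRF2 targets and 0.21 for the metallothioneins, which was −0.15 with quantile normalization. Likewise none of 43 cell cycle and mitosis genes was called, with AURKA, a mitotic kinase, at 13.2, 13.3 and 9.65 RPKM.

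In metabolism and signalling, no more than 1 member of a list was called in either direction, a share of 2.56 to 5.26%, against 1.94% higher and 2.53% lower of all counted promoters. These counts are too small to set the lists apart. Of 19 serine, glycine and one-carbon genes, GLDC fell and GNMT, glycine N-methyltransferase, rose (1.303, 0.593 and 1.04 RPKM), the second not as deposited. Of 36 interferon-stimulated genes only CMPK2, a mitochondrial nucleotide kinase, rose (0.326, 0.393 and 1.24 RPKM). FRZB, a secreted WNT inhibitor, was the only 1 of 39 WNT ligands, receptors and inhibitors that rose (0.881, 0.6 and 1.40 RPKM), and it was not called relative to its window. CHRDL1, an antagonist of BMP ligands, was the only 1 of 33 TGF-beta and BMP genes that fell (1.25, 1.15 and 0.276 RPKM).

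Of 23 counted HOX promoters, HOXD8 (0.326, 0.267 and 1.34 RPKM) and HOXD12 (0.528, 0.667 and 1.27 RPKM) rose (8.7%, against 1.94% of all). HOXC8 (7.06, 6.34 and 2.36 RPKM), HOXC11 (4.85, 4.93 and 1.89 RPKM) and HOXB2 fell (13%, against 2.53% of all). Of these, only HOXD8 was called under all 3 scalings. HOXD12, HOXC8 and HOXC11 were not called relative to their windows. Of 79 developmental transcription factors 3 rose and 3 fell (3.80% each, against 1.94% and 2.53% of all counted promoters), and 1 in each direction was called under all 3 scalings. FOXE1, a forkhead factor of thyroid development, rose 6.18-fold (0.203, 0.273 and 1.36 RPKM) under all 3 scalings. LHX9, a LIM homeobox factor, rose (2.03, 1.01 and 1.87 RPKM), but was called neither as deposited nor relative to its window, where its log2 ratio was 0.52. NKX2-5, a cardiac homeobox factor, fell (3.88, 4.87 and 1.65 RPKM), not with quantile normalization. SOX15 fell under all 3 scalings (2.26, 2.59 and 0.877 RPKM). It was called neither with scaling by stronger promoters (log2 ratio −0.84) nor relative to its window (log2 ratio −0.93).

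Among 14 counted promoters of the clustered protocadherins, adhesion proteins that give neurons an identity, PCDHAC1 rose, though not as deposited, and PCDHB1 and PCDHB15 fell under all 3 scalings, against 1.94% higher and 2.53% lower of all counted promoters. PCDHB1 and PCDHB15 were counted through Ni-E alone, and with scaling by stronger promoters neither was called (log2 ratios −0.85 and −0.86). PCDHAC1 held 0.793 RPKM in UT, 1.34 in Ni-E and 2.59 in Ni-W, and PCDHB15 held 0.784, 1.25 and 0.418 RPKM. All 3 held more in Ni-E than in UT, and in Ni-W the first was above both and the others below both. Their window was shifted by −0.04.

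In the ZNF and LINC families the shares called lay near the background. Of 430 counted ZNF promoters 12 rose and 12 fell (2.79% each), among them ZNF486 (0.449, 0.327 and 1.11 RPKM), ZNF883 (0.414, 0.393 and 1.25 RPKM) and ZNF577 (0.458, 0.513 and 1.61 RPKM) with rises under all 3 scalings. Of 158 counted LINC promoters 5 rose and 5 fell (3.16% each), with LINC00437 (0.617, 0.673 and 2.53 RPKM) and LINC01111 (1.55, 0.887 and 2.61 RPKM) up and LINC01399 (1.57, 1.49 and 0.376 RPKM) down. Only 2 of 375 olfactory receptor promoters were counted. OR4K5 (0.308, 0.280 and 1.03 RPKM) rose, but was counted through Ni-W alone, so that the filter favoured its call. Of 60 replication-dependent histone genes 4 fell (6.67%, against 2.53% of all), and HIST1H2BB (1.31, 1.17 and 0.326 RPKM) did so under all 3 scalings, while HIST1H3A (4.05, 4.15 and 1.56 RPKM) did not.

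At the median, promoters of ribosomal protein genes were shifted down in Ni-W relative to all counted promoters. Of 75 counted ribosomal protein promoters 5 fell and none rose, against a background of 2.53% lower, and their median shift relative to all promoters was −0.26 with median scaling and −0.23 with quantile normalization. RPS2 held 9.08 RPKM in UT, 11.6 in Ni-E and 3.93 in Ni-W, RPL13 8.53, 10.4 and 3.88 RPKM, and RPL10A 12.5, 13.3 and 5.33 RPKM. As deposited 33 of the 75 fell, and with quantile normalization and with scaling by stronger promoters none was called.

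The promoters of snoRNA genes, many of which lie in introns of ribosomal protein and translation factor genes, were a group with many falls. Of 155 counted, 37 fell (23.87%, against 2.53% of all counted promoters) and 1 rose, and their median shift relative to all promoters was −0.27 with median scaling and −0.33 with quantile normalization. Their summed level was 1106 RPKM in UT, 1311 in Ni-E and 677 in Ni-W. In Ni-E vs UT the group had been shifted the other way, by 0.34 relative to all promoters, and 9 were higher (5.81%, against 0.184% of all), 6 of which are the reversed gains named above. That number was 1 as deposited, 4 with quantile normalization and 3 with scaling by stronger promoters. The number that fell was 75 as deposited, 15 with quantile normalization and 8 with scaling by stronger promoters. This family was singled out after its values were seen. Windows of neighbouring snoRNA genes overlap and share reads, so its members are not independent counts. The 37 that fell have 22 nearest coding genes between them.

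Each snoRNA window was set beside the nearest protein-coding start for the 135 with an unambiguous position. Distances are to the outermost annotated start of the coding gene, which need not be the start behind the deposited values. The start lay within 2 kb, and so inside the window, for 44, and at 2 to 4 kb, where the windows overlap, for 43. All 37 that fell had a position, and they held 4.48, 6.55 and 2.21 RPKM at the median in UT, Ni-E and Ni-W, and the nearest coding promoters held 9.62, 11.6 and 5.12 RPKM. The median log2 ratio of Ni-W over Ni-E was −1.18 for these snoRNAs and −0.77 for their coding neighbours, of which 5 of 22 fell. These 37 were chosen because they fell, and over all 135 the medians were −0.74 and −0.52. SNORD56 and SNORD57 lie 4031 and 4346 bases from the start of NOP56, a core protein of box C/D particles, which held 18.7, 18.1 and 8.97 RPKM and was not called. Where windows overlap, snoRNA and coding levels share reads and are not independent measures. For 48 of the 135, and for 17 of the 37 that fell, the nearest coding start lay beyond 4 kb, without overlap with that coding window. Only protein-coding starts were searched, so the nearest one need not belong to the gene that holds the snoRNA. SNORD49A (15.7, 17.4 and 6.57 RPKM) was set beside TRPV2 (0.308, 0.373 and 0.134 RPKM), 24465 bases away. Such pairs are part of the medians above, and overlap with promoters of noncoding genes was not tested.

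Levels also shifted by chromosome region. In 287 windows of 10 Mb with at least 10 counted promoters, the median log2 ratio of Ni-W over Ni-E relative to all promoters ran from −0.60 to 0.91 (SD 0.229), with 7 windows below −0.3 and 49 above 0.3. For Ni-E over UT it ran from −0.14 to 0.12 (SD 0.0423), and no window passed 0.3 in either direction. The numbers for Ni-W over Ni-E were 6 and 47 with quantile normalization, and 7 and 49 with 1 promoter kept per 4 kb.

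The deepest shifts were on chromosome 9 and the highest on chromosome 2. The regions given here and below were picked after these shifts were seen, so the shares called in them are descriptions only. Between 0 and 40 Mb of chromosome 9, 65 of 159 promoters fell (40.9%, against 2.53% of all) and none rose, with median levels of 6.44 RPKM in UT, 6.02 in Ni-E and 2.35 in Ni-W. Promoters on the rest of chromosome 9, from 60 Mb on, held 6.78, 6.41 and 4.34 RPKM, and 2 of 429 fell. The number that fell in the first 40 Mb was 118 as deposited, 15 with quantile normalization and 6 with scaling by stronger promoters, and the shift relative to all promoters was −0.52 with median scaling and −0.53 with quantile normalization.

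Between 160 and 200 Mb of chromosome 2, where KCNH7, GRB14, FRZB, ITGA4 and the HOXD genes lie, 15 of 140 promoters rose (10.7%, against 1.94% of all) and none fell, with median levels of 4.197, 4.08 and 3.73 RPKM. On chromosome 13, which carries PCDH20 and LINC00437, 23 of 280 rose (8.21%) and none fell, with median levels of 5.01, 4.78 and 4.33 RPKM and a relative shift of 0.46. The rises numbered 11 as deposited, 28 with quantile normalization and 37 with scaling by stronger promoters on this stretch of chromosome 2, and 15, 42 and 51 on chromosome 13. Chromosome 15, with SNURF and DNAJA4, was shifted by 0.37 as a whole. On it 12 of 433 were higher (2.77%, near the 1.94% of all) and 2 lower (0.46%, against 2.53% of all). With median scaling, the median log2 ratio of Ni-W over Ni-E was 0.26, 0.04 and −0.05 in these regions, against −0.41 over all counted promoters. Other regions were shifted too. At 0 to 10 Mb of chromosome 16, 20 of 143 promoters fell (13.99%) and 1 rose, with a relative shift of −0.33. At 0 to 10 Mb of chromosome 17, 18 of 175 fell (10.29%) and 2 rose, with a shift of −0.32. At 180 to 200 Mb of chromosome 1, 6 of 50 rose (12%) and none fell, with a shift of 0.53.

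Reads in weakly marked windows were counted in the same regions. Over promoters below 0.6 RPKM in all 3 libraries, the log2 ratio of summed reads, Ni-W over Ni-E, relative to that of all such promoters was −0.61 at 30 to 40 Mb of chromosome 9, 1.17 at 180 to 190 Mb of chromosome 2, and between 0.19 and 1.04 in the windows of chromosome 13. Across 284 windows it ran from −0.64 to 1.17 for Ni-W over Ni-E and from −0.49 to 0.38 for Ni-E over UT. On chromosome 9 it did not follow the marked promoters in every window, with 0.19 at 10 to 20 Mb and 0.33 at 20 to 30 Mb. Their part in the shifts of marked promoters was not tested.

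**Figure D5:**
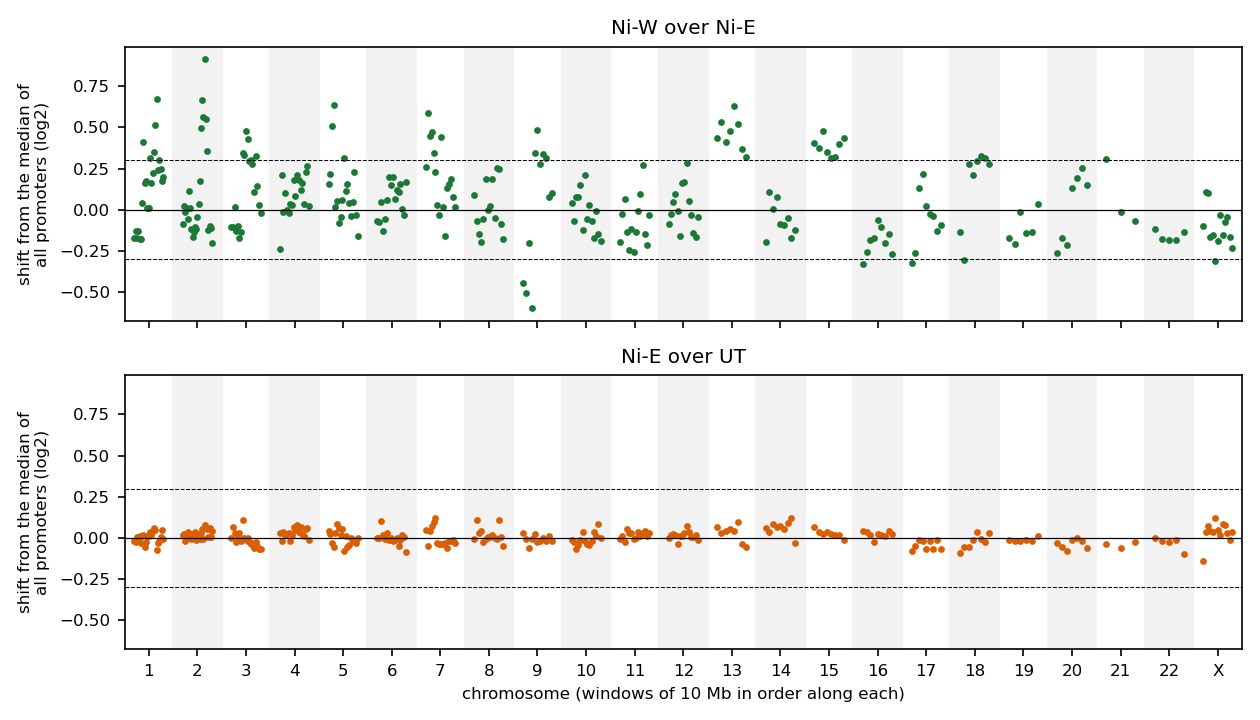
Median log2 ratio of counted promoters in windows of 10 Mb relative to the median of all counted promoters (y axis), for Ni-W over Ni-E (top, green) and Ni-E over UT (bottom, orange), by chromosome (x axis, windows in order along each). Dashed lines mark 0.3 in either direction. In the top panel 7 windows lie below and 49 above these lines, and in the bottom panel none does.

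The base composition of promoters moved with the comparison. Among counted promoters with at least 1 RPKM in UT, split into 5 groups of about equal size by the GC content of the 4 kb window, the median log2 ratio of Ni-W over Ni-E was −0.20 at 30.4 to 46.4% GC, −0.37, −0.47 and −0.53 in the next 3 groups and −0.49 at 57.5 to 73.6%. For Ni-E over UT the medians lay between 0.05 and 0.14. Among promoters below 0.6 RPKM in all libraries, the medians were 0.86 in the group of lowest GC content (22.5 to 39.4% GC) and −0.28 in the highest. The part of GC content in the calls was not tested beyond the count after centring on it, which was 246 rises and 381 falls.

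Promoters that rose held a median of 115 CG dinucleotides in 4 kb and those that fell 131, against 148 over all counted promoters with a position (96.16%). At a threshold of 1.5-fold those that fell held 154, above the median of all, so that the direction for falls turned with the threshold. In windows of 300 bases around the start (250 before, 50 after), 4 short motifs were searched on both strands. ACGTG, the core of a hypoxia response element, was in 18.9% of the promoters that rose, 26.0% of those that fell and 25.4% of all. TGANTCA, the AP-1 site, was in 6.95%, 7.08% and 4.95%, CAGGTG, an E-box, in 19.3%, 20.9% and 19.4%, and TGACGTCA, the cAMP response element, in 2.70%, 1.48% and 2.86%. These shares describe the letters in the windows only. By kind of gene, 8.08% of 297 counted miRNA promoters rose and 6.40% fell, 3.17% and 3.53% of 821 lncRNA promoters, and 1.70% and 2.01% of 12133 protein-coding promoters. Of the 274 rises, 154 were counted through Ni-W alone, so the values for rises in this paragraph are largely those of weak promoters. Counted promoters below 0.5 RPKM in UT held a median of 107 CG dinucleotides, those at 0.5 to 1 RPKM 112.5 and those at 8 or more 170. The part of the level in these values was not tested.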

How the data were processed

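H3K4me3 of UT, Ni-E and Ni-W BEAS-2B cells was measured by ChIP-Seq. Per the labels and the methods of the study, alignment was done by BWA on hg38, redundant reads were reduced to 1 copy, and the authors deposited an RPKM value for each promoter (2 kb on either side of a start site). No peaks were called, and the versions of the tools and the annotation of start sites are not given in the sources used here. Samples were grouped by their labels. Input libraries and the samples of the second cell line were not used here.

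Reads were recovered from the RPKM steps (100% of values whole, within 0.0006 RPKM). Levels were divided by the median promoter level of their library, as in the study's chromatin dynamic score, and levels under 3 reads were set to 3 reads. Ratios have exact binomial 95% intervals and levels have Wilson intervals, and both cover counting error only. With 1 library per condition no test was made. Intervals were computed with scipy 1.17.1 and tables with pandas 2.3.3 under Python 3.11.15, figures were drawn with matplotlib 3.10.9, and the steps were tested on simulated data. Positions and genes come from GENCODE release 44, matched for 24254 of 26237 promoters. A symbol on several loci was placed at the RefSeq gene of that symbol or left without a position.

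Genes were named by rule as the 10 largest rises and the 10 largest falls called with median scaling, without scaling and with quantile normalization, the 5 largest of each class of change under the same condition, and up to 4 called members per gene list, with near duplicates named together. A few genes that this rule or the lists name are not reported here. The members and the 35 lists were chosen with earlier results of these data known. Alternatives were no scaling, quantile normalization, scaling by strong promoters, a 1.5-fold threshold, a pseudocount of 1 RPKM, no filter, a filter at 3 RPKM and 1 promoter per 4 kb. Ratios relative to the 10 Mb window or to promoters of like GC content were added after seeing the data.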

Additional observations from a re-analysis of the deposited data

How the results depend on the processing

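Rises and falls in Ni-W vs Ni-E numbered 274 and 357, against 168 and 2633 without scaling, 401 and 188 with quantile normalization, 570 and 46 with scaling by strong promoters, 575 and 4287 at 1.5-fold, 114 and 27 with a pseudocount of 1 RPKM, 1707 and 1001 with no filter, 59 and 255 at 3 RPKM or more, 224 and 208 relative to the 10 Mb window, and 246 and 381 relative to promoters of like GC content. Reversed gains, reversed losses, retained gains and retained losses (9, 9, 2 and 1) became 3, 11, 4 and 6 without scaling, 4, 7, 2 and 1 with quantile normalization, 1, 14, 1 and 2 with strong promoters, 44, 36, 24 and 17 at 1.5-fold, 0 in each with the pseudocount, 131, 29, 256 and 9 with no filter, and 1, 3, 0 and 0 at 3 RPKM or more. New gains and new losses (213 and 128) became 99 and 2274, 308 and 113, 399 and 28, 420 and 2263, 98 and 2, 1311 and 280, and 54 and 82 in the same order. The median log2 ratio of −0.41 was −0.72 without scaling, −0.054 with quantile normalization, −0.0015 with strong promoters, −0.26 with the pseudocount, −0.25 with no filter and −0.45 at 3 RPKM or more. The cause of these changes was not tested, except that fewer or more promoters enter under another filter. Promoters that fell held a median of 154 CG dinucleotides in 4 kb at 1.5-fold (131 at 2-fold, 148 over all counted promoters).

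Of the 60 named promoters, none that was called in Ni-W vs Ni-E changed direction under any alternative run for it. COL21A1, which was not called, went from −0.23 to 0.19 with strong promoters. Calls numbered 54 without scaling, 50 with quantile normalization, 45 with strong promoters, 59 at 1.5-fold, 24 with the pseudocount and 48 relative to the window. The largest rises and falls were named only where calls held without scaling and with quantile normalization, which fixed that part of these counts. Of 60 counts of called list members, 29 moved by over 1.5 times without scaling, 14 with quantile normalization, 19 with strong promoters, 35 at 1.5-fold, 18 with the pseudocount and 24 with no filter, and 15 of 56 at 3 RPKM or more. One read was worth 0.00881 RPKM in UT, 0.00667 in Ni-E and 0.00835 in Ni-W, which sets the counting error, whereas the spread between cultures or colonies was not measured. No paired analysis was possible because each condition has 1 library.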

Other observations

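The promoters in this section were named after their values were seen. Further rises in Ni-W were at promoters below 1 RPKM in UT and Ni-E, counted through Ni-W alone. GRIA4, a glutamate receptor subunit, held 0.661 RPKM in UT, 0.493 in Ni-E and 2.52 in Ni-W, 6.34-fold above Ni-E after scaling. GABRA2, a GABA receptor subunit, held 0.194, 0.307 and 1.57 RPKM, and NPY2R, a neuropeptide Y receptor, 0.255, 0.327 and 1.65 RPKM. SEMA6D, a semaphorin, held 0.599, 0.387 and 2.00 RPKM, and CADM2, a synaptic adhesion protein, 0.705, 0.780 and 2.91 RPKM. Ni-W was the high library in each. These 5 were picked from the 274 rises, and the share of such genes was not computed.

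Some rises started from marked promoters. TFPI, the inhibitor of the tissue factor pathway of coagulation, held 3.003 RPKM in UT, 2.07 in Ni-E and 7.24 in Ni-W, and TNFRSF11B, osteoprotegerin, held 4.82, 3.01 and 8.84 RPKM. TFPI lies in the 10 Mb window of chromosome 2 that was shifted upwards by 0.91. The microRNA pair MIR15B and MIR16-2, which lie inside SMC4, held 8.13, 5.90 and 17.1 RPKM and 7.43, 5.28 and 16.1 RPKM, whereas the promoter of SMC4 itself held 21.1, 19.4 and 11.6 RPKM and was not called (log2 ratio −0.44). Beside MIR125B1, its neighbours MIR100 (0.590, 0.507 and 0.359 RPKM) and MIRLET7A2 (0.590, 0.540 and 0.793 RPKM) were below 1 RPKM in all libraries. SNRPN, beside SNURF, was also below 1 RPKM and so not counted (0.203, 0.207 and 0.518 RPKM), and its level was 3.10-fold above Ni-E in Ni-W after scaling.

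Among the falls, DUSP2, a phosphatase of MAP kinases, held 3.91 RPKM in UT, 5.46 in Ni-E and 1.38 in Ni-W, BCHE, butyrylcholinesterase, 2.52, 2.29 and 0.635 RPKM, and APOBEC3D, a cytidine deaminase, 1.22, 0.893 and 0.242 RPKM. On the first 40 Mb of chromosome 9, LINGO2 held 8.17, 7.38 and 1.77 RPKM and STOML2, a mitochondrial stomatin, 5.11, 5.34 and 1.44 RPKM. In the same region CDKN2A held 17.6, 15.8 and 8.51 RPKM and CDKN2B 7.88, 5.99 and 6.49 RPKM, and these 2 were not called.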
